A study of Homo sapiens with 2 samples.

Results

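GATA2 peaks around 6 genes of mitosis were examined in LNCaP, a human prostate cancer line that responds to androgen. The genes were CDK1, CCNB1, CCNA2, PLK1, CDC20 and UBE2C. A peak was counted for a gene when its midpoint lay inside the gene body plus or minus 0.1 Mb on hg19. By this rule 18 of the 36797 peaks of the deposited list belonged to the 6 genes. The windows are defined by gene positions and by no measured value. The genes and windows were, however, chosen with earlier results of these data known. GATA2 is a transcription factor that binds GATA sequences through zinc fingers, and its sites had been mapped by chromatin immunoprecipitation and sequencing (ChIP-seq). The labels give 2 replicate samples of 1 group, with no input or other control sample among those used here. All cells were grown in RPMI with 10% serum and held for the last 3 days in RPMI with 5% charcoal-treated serum, from which steroids have been stripped. There was 1 peak list for both samples, with no column for either, so no value below has a replicate error and no test was possible. Read numbers are not part of the list, so the depth behind a peak is unknown and the lack of a peak does not show that GATA2 was absent.

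Entry into mitosis is driven by the kinase CDK1 bound to its cyclins, and exit from it by the destruction of those cyclins. The anaphase-promoting complex is the ubiquitin ligase that marks mitotic cyclins for destruction. Transcription of these genes peaks in the G2 and M phases. It is known to be held down in resting cells by the DREAM complex and switched on by B-MYB and FOXM1, largely through the cell cycle genes homology region (CHR) and nearby CCAAT boxes of the promoters. In prostate cancer UBE2C, CDK1 and CDC20 are known as M-phase genes of castration-resistant disease, in which the androgen receptor is known to act on UBE2C and CDK1 from distal enhancers, with GATA2 as a known partner of that receptor on chromatin.

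Of the 6 genes, 3 had a GATA2 peak inside the interval that the window rule gives for the gene body. These were CDC20 and PLK1, with intervals of 10 kb, and CDK1, with one of 30 kb, and a peak stood in 11.5% of genome tiles of 10 kb and in 29.1% of those of 30 kb. UBE2C, with an interval of 10 kb, and CCNA2 and CCNB1, with intervals of 20 kb, had none there, and 21% of 20 kb tiles held a peak. The promoters shown are those of the 3 genes with a peak in the interval, and those of CCNA2 and CCNB1 are described in words. The sequences run 5′ to 3′ on the gene's strand, from 250 bases before to 50 bases after a RefSeq start, and are credited to RefSeq on GRCh38.p14. Capitals mark matches, on either strand, to CCAAT, to the CHR strings TTTGAA and TTCGAA, and to 4 GATA strings, which are AGATAA and its variant TGATAA, together with AGATAG and its variant TGATAG.
CDC20, chr1:43358731-43359030, plus strand: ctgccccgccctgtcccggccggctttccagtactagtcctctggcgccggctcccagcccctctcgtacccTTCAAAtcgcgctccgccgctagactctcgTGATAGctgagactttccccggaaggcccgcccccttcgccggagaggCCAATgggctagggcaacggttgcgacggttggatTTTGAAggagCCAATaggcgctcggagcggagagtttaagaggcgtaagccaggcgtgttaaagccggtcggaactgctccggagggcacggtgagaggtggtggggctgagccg
PLK1, chr16:23678639-23678938, plus strand: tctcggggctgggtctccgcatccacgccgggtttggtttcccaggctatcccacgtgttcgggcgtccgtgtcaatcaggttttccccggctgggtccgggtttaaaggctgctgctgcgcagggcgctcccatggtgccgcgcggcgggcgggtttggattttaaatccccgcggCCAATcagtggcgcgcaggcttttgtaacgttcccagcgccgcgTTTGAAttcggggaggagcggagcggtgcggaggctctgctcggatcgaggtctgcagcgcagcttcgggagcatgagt
CDK1, the downstream of its 2 RefSeq starts, chr10:60778228-60778527, plus strand: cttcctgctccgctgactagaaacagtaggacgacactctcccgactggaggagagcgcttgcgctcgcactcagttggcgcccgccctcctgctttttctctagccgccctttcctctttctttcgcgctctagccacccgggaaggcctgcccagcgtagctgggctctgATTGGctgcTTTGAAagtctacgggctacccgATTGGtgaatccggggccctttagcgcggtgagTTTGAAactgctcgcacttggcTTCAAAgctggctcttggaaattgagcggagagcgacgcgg
These windows are on another build than the peaks and were not joined to them, so they show the letters of the promoters and not of the peaks.

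RefSeq promoters were matched for 5 of the 6 genes, all but UBE2C. A CCAAT string stood in the promoters of all 5, against 34.6% of 34796 distinct RefSeq promoters of the same length. A CHR string was found in CDC20, PLK1 and CDK1, against 16.4% of all promoters. In CDC20 a CHR string at bases -65 to -60, counted from the start, lay just before a CCAAT string at -55 to -51. CDC20 had another CHR string at -178 to -173 and another CCAAT string at -100 to -96. In PLK1 a CCAAT string at -73 to -69 was followed by a CHR string at -29 to -24. CDK1 had CHR strings at -69 to -64, -13 to -8 and 10 to 15 of its downstream start, with CCAAT strings at -78 to -74 and -46 to -42. The other CDK1 start, 147 bp upstream, had 1 string of each kind. CCNA2 and CCNB1 had neither CHR string. CCNA2 held the related string CTTGAA at -87 to -82 and at -28 to -23, a string found in 11.2% of all promoters. A GATA string was found only in CDC20, TGATAG at -148 to -143, one of the 2 strings added after the promoters had been seen, and AGATAA and TGATAA were found in none of the 5. Any of the 4 GATA strings was held by 8708 of the 34796 promoters. None of these matches overlapped another. They describe letters, and no statement about binding follows from a match or from its absence.

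CDK1, the kinase at the centre of mitotic entry, had the most GATA2 peaks of the 6 genes, a lead that rests on low-scoring calls. Its window, chromosome 10 from 62.43 to 62.66 Mb, held 8 peaks, against 2.95 given by the density of the whole list. Of 12456 genome tiles of the same width, 4.54% held at least 8 peaks. CDK1 is the highest of 6 windows, so this share is not that of a single window named beforehand. The tiles were not matched to the windows for gene content. With the better-scoring 50% of the list CDK1 kept 2 peaks, as many as UBE2C, CCNA2 and PLK1, and 40.4% of tiles held at least 2. With the best-scoring 10% it kept 1, and 24.2% of tiles held at least 1. The 8 peaks stood on both sides of the gene, 4 at lower coordinates, 1 inside the gene interval from 62.53 to 62.56 Mb, and 3 at higher coordinates. CDK1 lies on the plus strand, so the lower side is upstream. The farthest peak upstream, chr10:62479341-62479980, scored 857.56 and was the highest-scoring of all 18. The score is the authors' value from the peak caller and serves here only to rank peaks within the list. This peak ranked 2159 of 36797, in the best-scoring 10%, and ended 50.02 kb before the gene interval. A weak peak of score 96.40 followed at chr10:62481124-62481604. In RefSeq gene order the neighbour of CDK1 on that side is ANK3, and on the other side RHOBTB1. Which gene these peaks lie in or near was not determined.

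The peaks closer to CDK1 all scored below 857.56, and the highest of them scored 512.15. Upstream, chr10:62520683-62520987 scored 149.35 and chr10:62522073-62522294 scored 83.79, the lowest of the 18. They ended 9.01 and 7.71 kb before the gene interval. Inside the interval, chr10:62541489-62541821 scored 189.13, under the list median of 212.2. Of 30 kb tiles, the width of this interval, 29.1% held a peak. The interval is longer than the gene, which RefSeq gives as 16522 bp on GRCh38.p14, so a place in an exon or intron was not assigned. Beyond the gene stood chr10:62567253-62567638 with a score of 165.77, chr10:62567835-62568230 with 512.15 and chr10:62581590-62581858 with 187.99. They began 7.25, 7.83 and 21.6 kb past the interval.

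The CDK1 peaks came largely in close pairs. There were 3 pairs with centres within 2 kb, so 6 of the 8 peaks had such a neighbour, against 9.82% of the whole list. The pair of scores 857.56 and 96.40 had centres 1.70 kb apart, the pair of 149.35 and 83.79 had them 1.35 kb apart, and the pair of 165.77 and 512.15 had them 0.587 kb apart with a gap of 196 bp between the calls. In each pair at least 1 peak scored under the list median of 212.2. No peak of the other 5 genes had a neighbour within 2 kb. Whether a pair is 2 calls on 1 enriched region was not tested. With calls under 500 bp apart merged, the CDK1 window held 7 peaks.

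**Figure D1:**
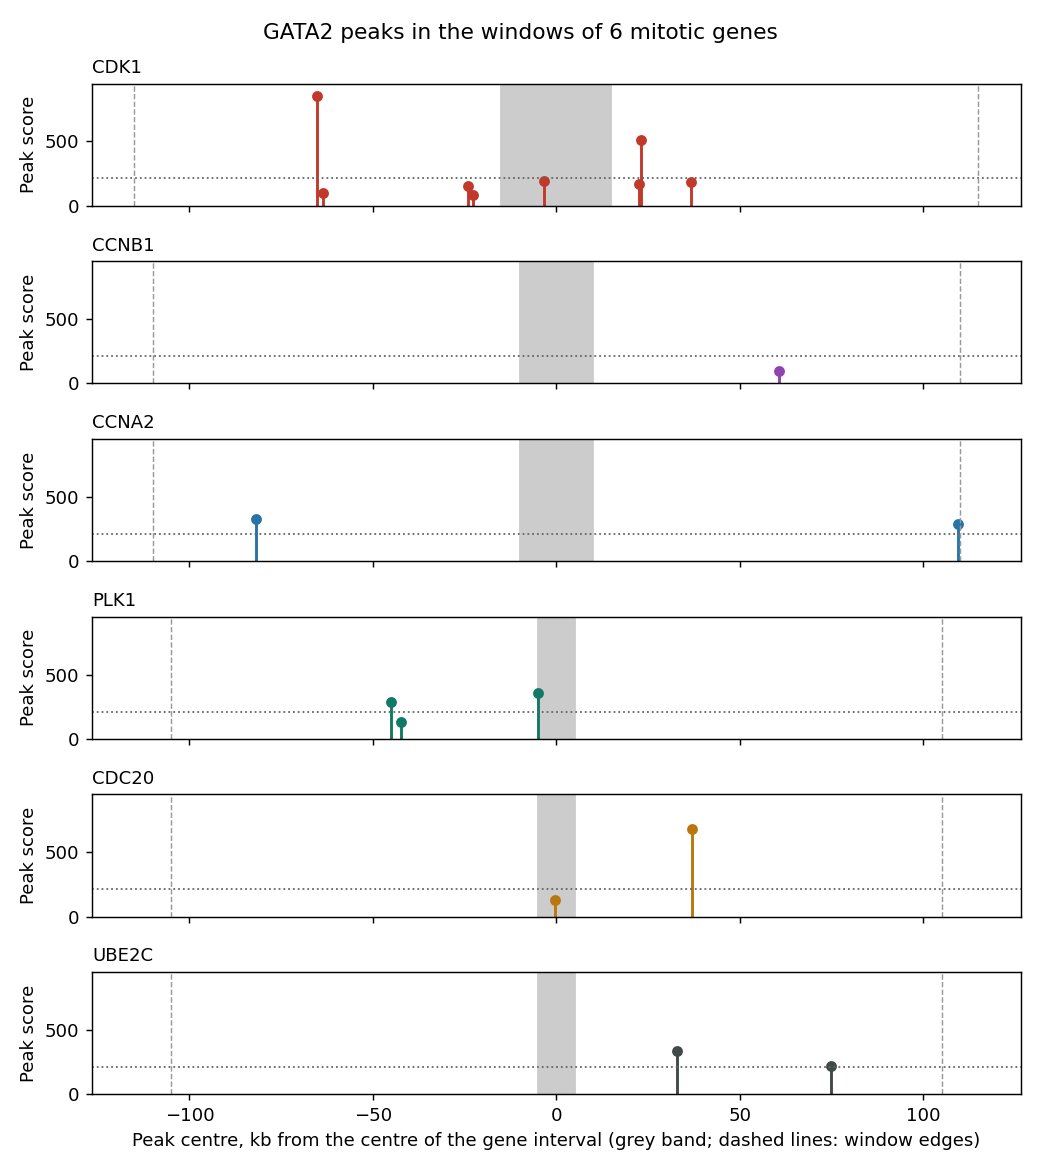
Score of each GATA2 peak (vertical axis, authors' value with no stated unit) by the position of its centre in kb from the centre of the gene interval (horizontal axis), with 1 panel per gene. The grey band is the gene interval, dashed lines are the window edges and the dotted line is the list median of 212.2. CDK1 has 8 peaks on both sides of the gene, and CCNB1, CCNA2 and UBE2C have none in the grey band.

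CCNB1 encodes cyclin B1, the partner of CDK1 at mitotic entry. Its window, chromosome 5 from 68.36 to 68.58 Mb, had the fewest and among the weakest of the peaks. The only peak, chr5:68530475-68530654, was 180 bp wide, the narrowest of the 18, and scored 93.85. It began 50.5 kb past the gene interval, on the downstream side. At least 1 peak was present in 85% of tiles as wide, and the density of the list gives 2.82. The gene sat in a stretch of 192.7 kb without a peak, from 68337796 to 68530474. As long or longer were 9.57% of the peak-free stretches of the list, and by length these made up 41.8% of peak-free sequence. In RefSeq gene order the next genes on the downstream side are CENPH, which encodes a kinetochore protein, KGD4 and CDK7, the kinase known to activate CDK1. Which of them the peak lies in or near was not determined.

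CCNA2 encodes cyclin A2, which acts in S phase and at the onset of mitosis. Its 2 peaks lay at the far ends of the window, chromosome 4 from 122.63 to 122.85 Mb. One, chr4:122657956-122658232, scored 325.80 and ended 71.8 kb before the gene interval. The gene is on the minus strand, so this is the downstream side. The other, chr4:122849213-122849547, scored 290.58, began 99.2 kb past the interval and was just inside the window edge. Both scored above the list median. Between them lay 191.0 kb without a peak. Of the peak-free stretches of the list, 9.72% were as long or longer, and by length these made up 42.1% of peak-free sequence. Of tiles as wide as the window, 66.1% held at least 2 peaks.

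PLK1 is the polo-like kinase of mitotic entry and spindle assembly. Of the 6 genes it alone had a peak of above-median score at its gene interval. The peak chr16:23689979-23690269 scored 359.00, was 291 bp wide and overlapped the low edge of the interval from 23.69 to 23.70 Mb, the edge at which this plus-strand gene starts. Of 10 kb tiles, 11.5% held a peak. The interval is known only to about 10 kb and is shorter than the RefSeq gene length of 11479 bp, so the distance to the start site was not measured. A further pair of peaks lay upstream. The peak chr16:23649882-23650193 scored 284.10, and chr16:23652578-23652785 scored 134.22, with centres 2.64 kb apart, ending 39.8 and 37.2 kb before the interval. In gene order the neighbours on that side are DCTN5, a dynactin subunit, and PALB2, a DNA repair protein. From that edge on no peak followed for 273.6 kb, and 4.85% of the peak-free stretches between neighbouring peaks of the list were as long or longer, with a median of 41.2 kb. By length, such stretches made up 28.0% of all peak-free sequence outside stretches over 2.5 Mb. The window, chromosome 16 from 23.59 to 23.80 Mb, held 3 peaks, and 45.2% of tiles as wide held at least 3.

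CDC20, which activates the anaphase-promoting complex, had a weak peak at the gene and a strong one away from it. The peak chr1:43824434-43824688 lay wholly inside the 10 kb gene interval from 43.82 to 43.83 Mb, for which the share of 10 kb tiles with a peak is again 11.5%. It scored 132.36, and 73.3% of the list scored as high or higher. The peak chr1:43861869-43862308 scored 680.29, began 31.9 kb downstream of the interval, and was the second highest of the 18. It fell just short of the best-scoring 10%, which starts at 686.92. ELOVL1, which encodes a fatty acid elongase, follows CDC20 in gene order on that side. Upstream of the peak at the gene came 210.8 kb without another. Of the peak-free stretches of the list, 8.11% were as long or longer, and by length these made up 38.0% of peak-free sequence. With 2 peaks in the window, chromosome 1 from 43.72 to 43.93 Mb, CDC20 matched the median tile of the genome, and 64.4% of tiles as wide held at least 2.

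UBE2C is the ubiquitin-conjugating enzyme that works with the anaphase-promoting complex. It had no peak at the gene and 2 peaks on its high-coordinate side, in the window on chromosome 20 from 44.34 to 44.55 Mb. The nearer peak, chr20:44477629-44477941, scored 336.86 and began 27.6 kb past the gene interval, from 44.44 to 44.45 Mb. The farther peak, chr20:44519807-44520089, scored 217.13 and began 69.8 kb past it. Both scored above the list median, the second narrowly. The count was the same as for CDC20, with the same 64.4% of tiles at 2 or more. On the low-coordinate side the nearest peak, of score 84.65, was 14.5 kb outside the window, and the peak-free stretch around the gene measured 152.1 kb. Of the peak-free stretches of the list, 14.0% were as long or longer, and by length these made up 51.6% of peak-free sequence. TNNC2, SNX21 and ACOT8 are the next genes on the high-coordinate side. A stronger peak, chr20:44600438-44600858 with a score of 620.98, stood 50.4 kb beyond the window and was not counted.

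Over all 6 windows, the number of GATA2 peaks was close to that of the genome. The windows spanned 1.3 Mb and held 18 peaks, or 13.8 per Mb, against 12.8 per Mb for the list. The density of the list gives 16.7 peaks for that length, and the densities of the 6 chromosomes give the same 16.7. CDK1 supplied 8 of the 18. Without it, 5 windows held 10 peaks, against 13.7 by the density of the list, so the total rests on CDK1. The windows of UBE2C, CDC20, CCNA2 and PLK1 had 2 or 3 peaks, near the median of 2 per tile. The window edges left out some close peaks. The nearest were one of score 141.76 that ended 6.17 kb before the CDK1 window, one of 264.77 that began 9.50 kb past the CCNA2 window, and one of 126.63 that began 9.86 kb past the CCNB1 window. They would have given 9 peaks for CDK1, 3 for CCNA2 and 2 for CCNB1.

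**Figure D2:**
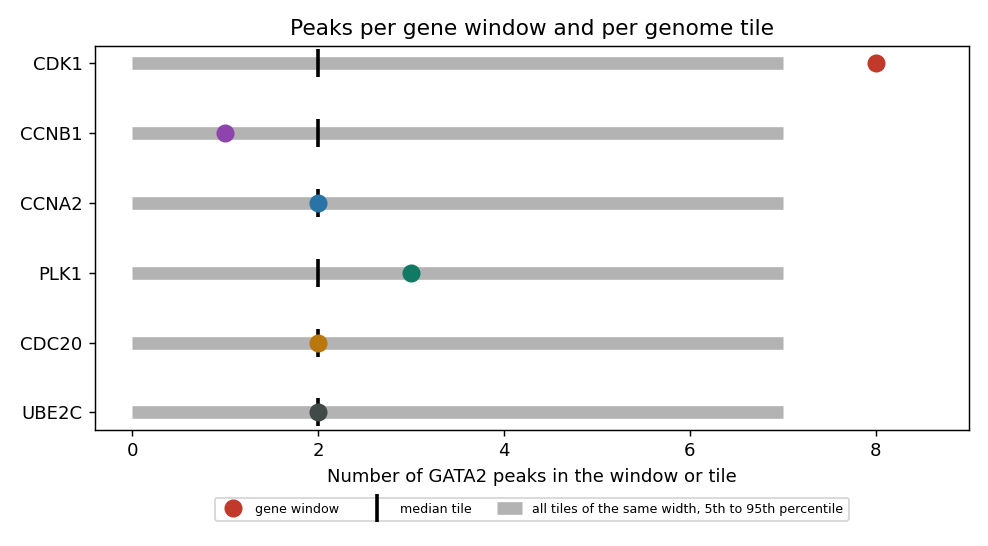
Number of GATA2 peaks (horizontal axis) in each gene window (coloured points), with the median (black tick) and the 5th to 95th percentile (grey bar) of all genome tiles of the same width. CDK1 lies beyond the grey bar at 8 peaks, and the other 5 genes lie inside it at 1 to 3.

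The scores of the 18 peaks were spread like those of the list. Their median was 203.1 (exact 95% interval from order statistics 134.2 to 336.9), against 212.2 for the list (95% interval 210.2 to 215.0). These intervals count over peaks, which are not replicates. Of the 18, 9 were in the better-scoring 50%, and 1 was in the best-scoring 10%. Scores under 100 were found for 3 peaks, those of 83.79 and 96.40 at CDK1 and that of 93.85 at CCNB1, against 11.9% of the list. The peaks inside gene intervals scored 189.13, 132.36 and 359.00, so the highest-scoring peaks, of 857.56 at CDK1 and 680.29 at CDC20, lay away from the gene intervals. CDK1 held the lowest and the highest of the 18, and 6 of its 8 peaks scored under the list median.

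**Figure D3:**
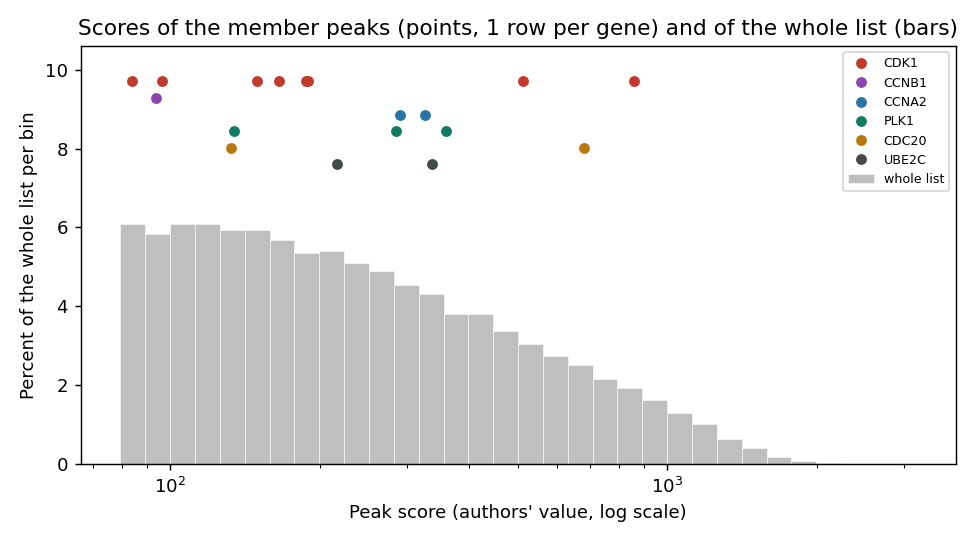
Scores of the 18 peaks (points, 1 row per gene, with no meaning in the height of a row) above the distribution of scores in the whole list (grey bars, percent of the list per bin), on a log axis. The points run from 83.79 to 857.56 and none reaches 1000, while the list goes on to 3100.

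The number of peaks was also set against distance from the gene interval. Within 10 kb of the gene interval CDK1 had 5 peaks, against 0.641 by the density of the list. Of these, only the peak of 512.15 scored above the list median of 212.2. The peaks of 149.35 and 83.79, and those of 165.77 and 512.15, were the close pairs described above. The share of tiles of like width with as many peaks was not computed. PLK1 and CDC20 had 1 each within 10 kb, against 0.385. UBE2C, CCNA2 and CCNB1 had none within 25 kb, and CCNA2 and CCNB1 had none within 50 kb. These are small numbers, since the density of the list gives 1.54 peaks for CCNA2 and for CCNB1 at 50 kb. At 10 kb it gives 0.385 to 0.513 for the genes other than CDK1. Having 1 peak or none at that distance therefore does not separate those genes.

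Well beyond the window, the surroundings of CDK1 still held more peaks than the density of the list gives. Within 0.2 Mb of its interval there were 15 peaks, against 5.51 by the density of the list, and within 1000 kb there were 49, against 26.0. They fell on both sides, 27 at lower and 21 at higher coordinates. CCNB1 went the other way with distance. It had 1 peak within 100 kb but 46 within 1000 kb, against 25.9, with 21 at lower and 25 at higher coordinates. Of the 46, 33 lay below 69 Mb, against 19.7 by the density of the list, and 13 past it. Chromosome 5 from 69 to 71 Mb held 75 peaks, where the list had 12.8 per Mb. Whether reads can be placed uniquely in that stretch was not examined. CCNA2 had 15 peaks within 1000 kb, against 25.9. UBE2C had 25, CDC20 had 20 and PLK1 had 18 at that distance, against 25.8 for each. Tile shares were not computed for 0.2 Mb or 1000 kb, so how common such counts are in the genome is unknown.

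**Figure D4:**
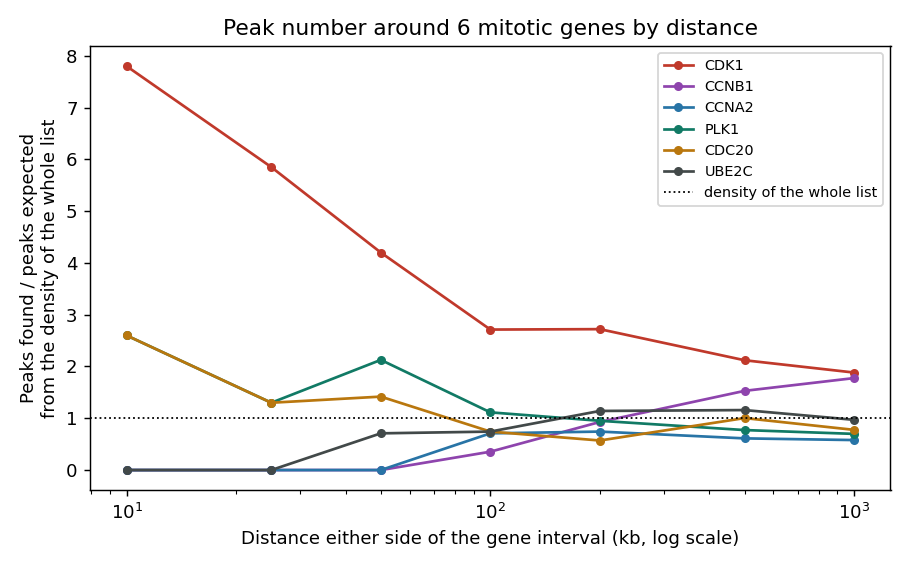
Peaks found divided by peaks given by the density of the whole list (vertical axis), within 10 to 1000 kb of each gene interval (horizontal log axis), with 1 line per gene and a dotted line at the density of the list. CDK1 runs from 7.80 at 10 kb to 1.88 at 1000 kb and stays above the other genes, CCNB1 climbs to 1.78 at 1000 kb, and the lines of PLK1 and CDC20 coincide at 10 and 25 kb. The spread of this ratio over the genome was not computed.

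The widths of the 18 peaks were those of ordinary peaks of this list. Their median was 308.5 bp (95% interval 269 to 386), against 293 bp for the list, and they ranged from 180 to 640 bp. Wider peaks scored higher, with a Spearman's rho of 0.83 across the list and 0.58 across the 18 peaks, which come from the same libraries. Each peak was therefore set against those of like score, in 10 bins of equal size. For 16 of the 18, the width lay between the 5th and 95th percentile of its bin. The exceptions were wider than that range and both belonged to close pairs at CDK1. The peak of score 96.40 measured 481 bp, against a median of 160 bp for its bin, and the peak of score 165.77 measured 386 bp, against 247 bp. The widest of all, at 640 bp, was the CDK1 peak of score 857.56.

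**Figure D5:**
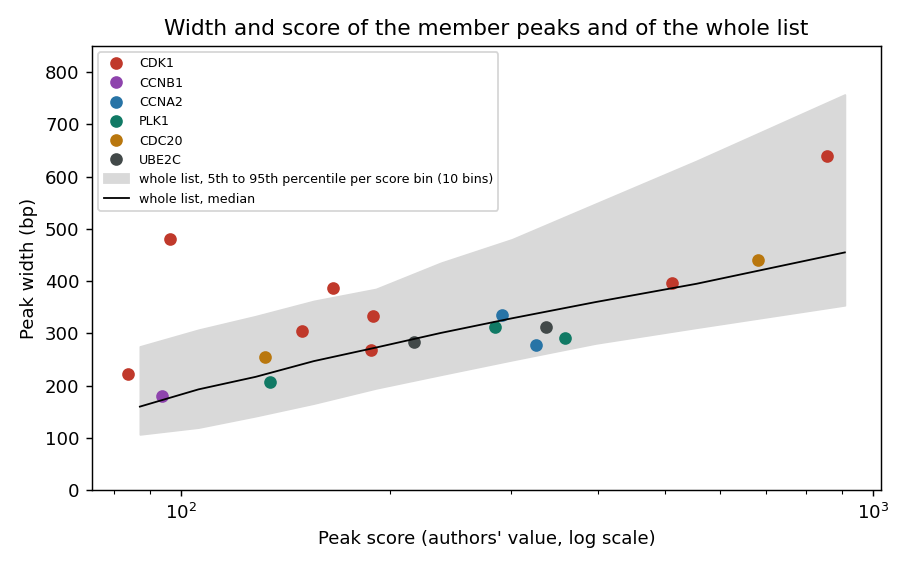
Width in bp (vertical axis) against score (horizontal log axis) for the 18 peaks, coloured by gene, with the median (line) and the 5th to 95th percentile (band) of the whole list for each of 10 bins of score. CDK1 peaks of 481 and 386 bp lie above the band, and the other genes' peaks lie in it.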

How the data were processed

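The authors deposited 1 peak list for the series, made from 2 replicate GATA2 ChIP-seq samples of LNCaP cells. The submitters' processing notes name Bowtie and the build hg19, and the deposited peak names carry the name of the caller MACS. Not given in the sources used here are the versions, any control library, duplicate handling and pooling of the replicates. The deposited score is the authors' own value per peak, from 80.01 to 3100, of unstated scale.

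Midpoints were assigned to the 6 windows, and starts are printed 1-based. Gene intervals are the windows less 0.1 Mb at each end. They are good to about 10 kb. Tiles of each window's width covered the 2870 Mb from first to last peak of each chromosome, less peak-free stretches over 2.5 Mb. The assignment of peaks to windows and the counting in tiles were tested on simulated data, and the other steps were not. Named items are the 6 genes and every peak in their windows. The members, windows and lists were chosen with earlier results of these data known. Gene order, lengths and promoters come from RefSeq GRCh38.p14 and were not joined to hg19 positions. The GATA string AGATAG with its variant TGATAG, and the string CTTGAA, were added after seeing the promoters. Peaks near other mitotic genes and peak sequences were not analysed here, as no hg19 genome or annotation was used. Python 3.11.15, numpy 2.4.6, pandas 2.3.3, scipy 1.17.1 and matplotlib 3.10.9 were used.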

Additional observations from a re-analysis of the deposited data

How the results depend on the processing

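The total of 18 peaks became 9 with the better-scoring 50% of the list and 1 with the best-scoring 10%, by construction, since fewer peaks entered. It became 38 with 0.2 Mb on each side of the gene interval, where the length is larger, and 10 without CDK1, a setting chosen after seeing the data. It was 13 with 0.05 Mb, 17 with close calls merged and 18 with any overlap in place of the midpoint. The median score of 203.1 became 857.6 with the best-scoring 10%, which left 1 peak. With the better-scoring 50% it became 336.9, the upper limit of its 95% interval. Both rises follow by construction, since lower-scoring peaks were left out. Under the remaining settings the median ran from 188.0 to 287.3, inside that interval. The share of tiles with at least as many peaks as CDK1, 4.54% with all peaks, was 40.4% in the better-scoring 50%, where CDK1 kept 2 peaks, and 24.2% in the best-scoring 10%, where it kept 1. Of 78 alternative values on single windows, tile shares and nearest distances, 34 stayed close to the value reported and 44 moved. Some of these moves follow by construction. Leaving out tiles without a peak raises every share, and a window left with no peak has a share of 100%. A count or a distance was taken as close within 1.5 times, and a share within its Wilson 95% interval. Promoters with a GATA string numbered 0 with the 2 strings set first and 1 with all 4. Leaving out a replicate was not feasible with 1 list for both. No paired analysis was possible because the labels give a single group. How far depth limits the peaks is unknown.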
